A study of Bos taurus with 2 samples.

Results

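The longest CpG islands of the bovine genome were described in the sperm of Bull1 and Bull2, Holstein bulls that are monozygotic twins. An island was taken here as a maximal run of consecutive listed CpGs on the 29 autosomes in which neighbouring CpGs lay at most 50 bp apart, and a run was kept when it held 100 or more CpGs. This rule used positions alone and no methylation value. It gave 5309 long runs out of 11349557 runs in all, single CpGs included, or 0.0468%.

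Each bull gave 1 library of whole-genome bisulfite sequencing (WGBS), in which bisulfite converts cytosine to uracil unless it is methylated, so that methylated cytosines are still read as cytosine. Both bulls were Holstein sires used for artificial insemination, and their frozen semen was collected at 72 months of age within the same week. The study describes them as sharing a genotype and differing in sperm quality, with higher motility in Bull1. The label sperm could not be checked against marker genes, because an annotation of the genome build of the files (UMD3.1) was not used here, and with 1 library per bull every difference below is between 2 libraries and has no replicate check.

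CpG islands are stretches in which CpGs are dense, and in mammals many of them lie at the promoters or first exons of housekeeping and developmental genes. Most of the sperm genome carries methyl groups on its CpGs, whereas islands commonly escape methylation during male germ cell development. Dense islands are also GC-rich, and such sequence is commonly read at lower depth in bisulfite libraries, so that the depth of each island belongs beside its level.

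The long runs held 732648 CpGs, 2.81% of the autosomal CpGs, in 6.90 Mb of sequence. The median run had 126 CpGs (quartiles 110 and 152) over 1215 bp (quartiles 1036 and 1461), and the largest had 1032 CpGs over 11456 bp. A median of 10.8 CpGs stood in each 100 bp of a long run, against 1.04 per 100 bp over the autosomes. Of the runs, 356 held 200 or more CpGs and 37 held 300 or more. They were unevenly spread over the chromosomes. Chromosome 25 had 6.55 runs per Mb, followed by chromosome 19 with 4.48 and chromosome 18 with 3.91, whereas chromosomes 1 and 8 had 1.16 each. When runs less than 10 kb apart were joined, they fell into 4676 loci, of which 4245 held a single run, 328 held 2 and 103 held 3 or more. In all, 982 of the 5294 runs with reads in both libraries (18.5%) lay within the last 5 Mb of their chromosome, where 5.77% of the autosomal span lies.

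Most long runs were read at far lower depth than the rest of the genome. Autosomal CpGs had a mean of 20.3 reads in Bull1 and 18.7 in Bull2, and medians of 18 and 15. The median long run had 4.30 reads per CpG in Bull1 (quartiles 3.28 and 5.56) and 4.91 in Bull2 (quartiles 3.82 and 6.23). The mean over all CpGs of long runs was 14.1 in Bull1 and 17.5 in Bull2. Without the very deep runs described below it was 4.49 and 5.10. The order of the libraries was also turned around, as the median ratio of Bull2 over Bull1 was 1.14 in long runs of ordinary depth and 0.918 over all autosomal CpGs. Depth fell with CpG density. When the 5232 long runs with up to 3 times the autosomal mean depth were split into 4 groups of nearly equal size by CpG density, the median of the least dense group was 5.36 reads per CpG in Bull1 and 5.91 in Bull2, and that of the densest was 3.44 and 4.06. No reads were found for 14 runs in Bull1 and 10 in Bull2, of which 9 lacked reads in both libraries, and 3 of these 9 lay in a locus of 10 runs at chr18:58222840-58240893. A mean of 5 or more reads per CpG in both libraries was reached by 1524 runs, and of 10 or more by 116. A read that spans several CpGs was counted at each of them, so the intervals given below rest on CpGs at least 300 bp apart, farther than the fragments were long, and cover counting error only. Tallies of CpGs that were higher in one bull use all such reads, so neighbouring CpGs in them are not independent.

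**Figure D1:**
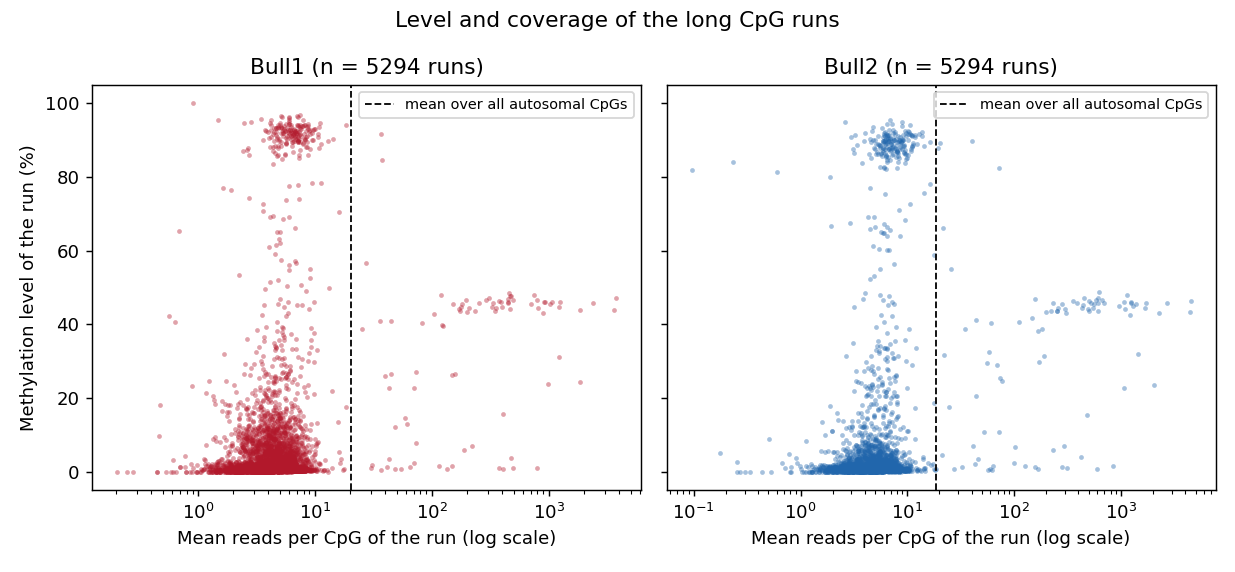
Mean reads per CpG (x axis, log scale) and methylation level in percent (y axis) of the 5294 long runs with reads in both libraries, 1 point per run, with Bull1 on the left and Bull2 on the right. The dashed line is the mean over all autosomal CpGs (20.3 and 18.7 reads); most runs lie to its left and near 0%, and a separate group of very deep runs lies to its right, mostly between 40% and 50%.

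Most long runs were free of methylation in both bulls. The level of a run, its methylated reads over all its reads, had a median of 0.947% in Bull1 (quartiles 0.500% and 3.98%) and 0.778% in Bull2 (quartiles 0.458% and 1.51%), while the level over all autosomal CpGs was 75% in Bull1 and 70.8% in Bull2. Below 10%, and called unmethylated here, were 4556 of the 5294 runs in both libraries (86.1%). At or above 80%, and called methylated, were 181 in both (3.42%), and 263 lay between these limits in both (4.97%). The share that was unmethylated in both libraries was 70.1% of runs with 50 to 99 CpGs and 25.5% of runs with 20 to 49 CpGs, and the share methylated in both was 17.1% and 46.3%. Just outside the limit of the rule, runs with 99 CpGs had median levels of 0.909% in Bull1 and 0.738% in Bull2, and just inside it, runs with 100 CpGs had 0.912% and 0.821%. Within the 5232 runs of ordinary depth the level fell with density, from a median of 1.98% in the least dense of the 4 groups to 0.746% in the densest in Bull1, and from 1.19% to 0.670% in Bull2.

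**Figure D2:**
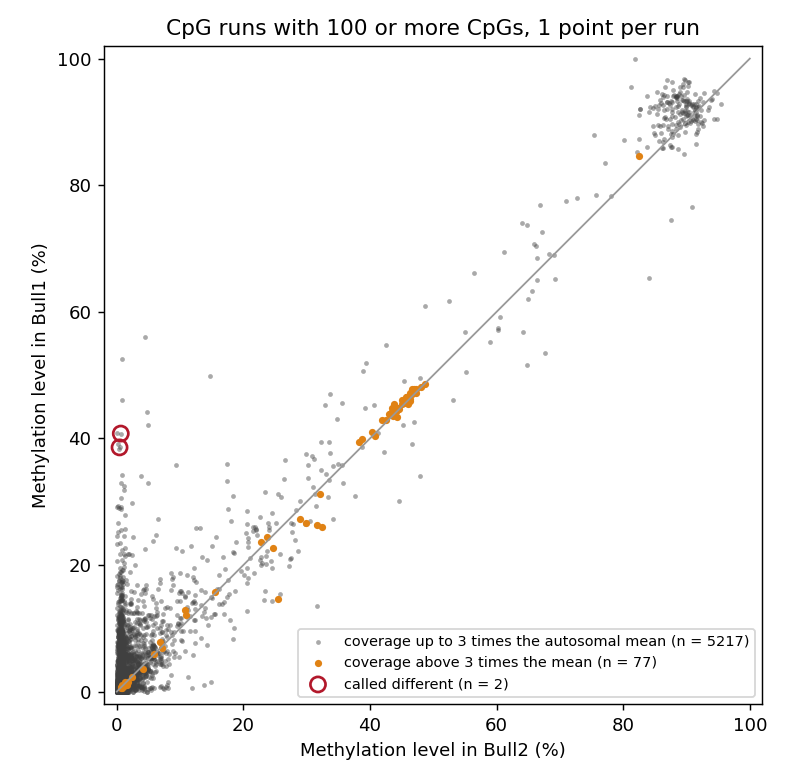
Methylation level in percent of each long run in Bull2 (x axis) and Bull1 (y axis), with the line of equal levels in grey, runs above 3 times the autosomal mean coverage in orange and the 2 runs called different circled. Most runs sit in the corner near 0, 181 sit at 80% or more in both libraries, and a column of runs near 0 in Bull2 reaches up to 52.6% in Bull1 with no like row near 0 in Bull1.

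Of the long runs that differed by more than 10 points, most were higher in Bull1. Over all long runs the median of Bull1 minus Bull2 was only 0.17 percentage points, with 3114 runs higher in Bull1, 2160 higher in Bull2 and 20 equal. The share higher in Bull1 was 58.8%, near the 57.6% of all autosomal runs with 20 or more CpGs, whose median difference was 0.37 points. Of the runs that crossed the limit of 10%, 273 were unmethylated in Bull2 and between 10% and 80% in Bull1, and 16 were the other way round. These are 5.16% and 0.302% of the covered long runs, where the background over all autosomal runs with 20 or more CpGs was 1.84% and 0.883%. Only runs unmethylated in one of the libraries can be counted here. Unmethylated in Bull2 were 91.2% of the long runs and 39.6% of the background, and in Bull1 86.4% and 38.6%. The shares that crossed the limit are thus not on a like base. A difference above 10 percentage points was seen in 207 runs (3.91%) with the higher level in Bull1 and in 14 (0.264%) with the higher level in Bull2. Both shares lie below the background of 6.3% and 2.16%. Runs below 10% in both libraries cannot differ by more than 10 points, and they made up 86.1% of the long runs and 37.8% of the background. The shares above 10 points are thus not on a like base either. These shares are descriptions, since runs are not replicates.

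A narrower count, chosen after the levels had been seen, took runs below 2% in one library and at or above 10% in the other. There were 166 long runs near 0 in Bull2 and partly methylated in Bull1 by this count (3.14%) and 3 of the opposite kind (0.0567%), where the background over all runs with 20 or more CpGs was 0.714% and 0.109%. The share of such runs in Bull1 was 0.336% among runs with 20 to 49 CpGs and 1.36% among those with 50 to 99. Only runs unmethylated in Bull2 can be counted here. They made up 26.9% and 72.9% of these classes, 91.2% of long runs and 39.6% of all runs with 20 or more CpGs. The shares of counted runs thus do not rest on a like base. Within the long runs the counted share was 2.82% at 100 to 149 CpGs and 3.18% at 150 to 199. At 200 or more it was 6.46% (23 of 356 runs). It also went up over 4 groups of CpG density made from all 5294 covered runs, from 1.59% in the least dense to 2.65%, 3.78% and 4.53% in the densest. Depth moved the other way. The share was 3.48% where the shallower library had under 3 reads per CpG, 3.27% at 3 to 5 reads and 2.62% (40 of 1524 runs) at 5 or more. Of the runs read more deeply in Bull1, 3.79% were of this kind, and of the others, 2.82%. The part of depth and base composition in the difference was not tested.

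**Figure D3:**
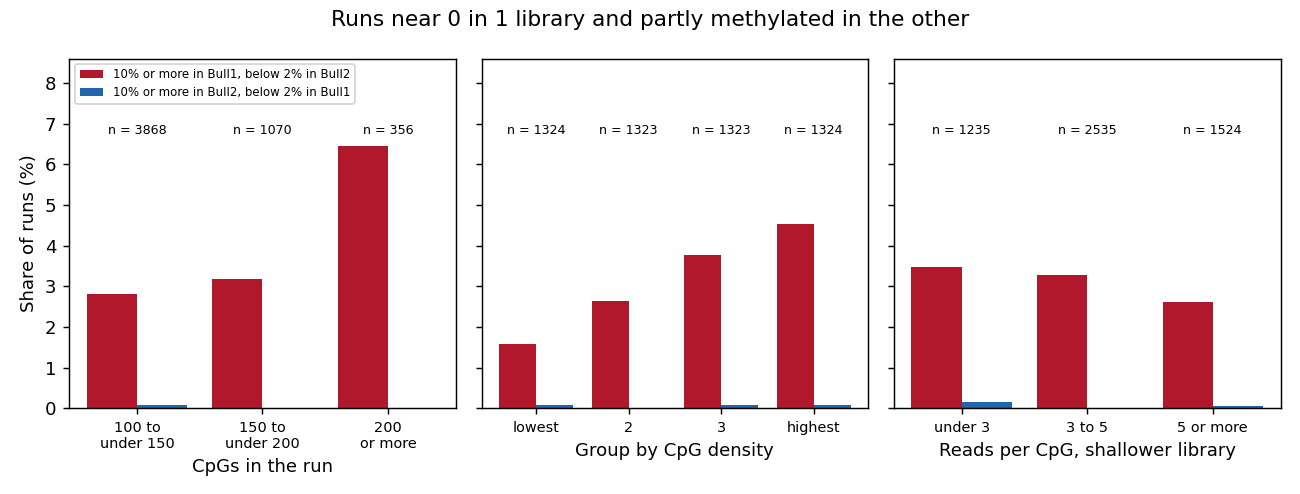
Share of long runs in percent (y axis, from 0) at or above 10% in one library and below 2% in the other, by number of CpGs (left), group of CpG density (middle) and reads per CpG in the shallower library (right), with the number of runs above the bars. Red bars (high in Bull1) stand between 1.59% and 6.46%, and blue bars (high in Bull2) at 0.162% or lower.

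The 166 runs had a median level of 14.3% in Bull1 (quartiles 11.6% and 18.8%, highest 52.6%) and 0.659% in Bull2. Of the 163 that could be tested, 2 were called by the exact test on CpGs at least 300 bp apart, given below. With all reads divided by CpGs per 300 bp, also given below, 0 were called. The backgrounds were 0.00429% and 0.00289% of runs with 20 or more CpGs, which were not chosen for differing. The 166 runs had a median depth of 4.42 reads per CpG in Bull1 and 4.52 in Bull2. This was near the low depth of all long runs (4.30 and 4.91), and the 166 runs lay on 28 chromosomes. Of these, 8 (4.82%) lay in the last 5 Mb of a chromosome. The methylation in Bull1 was concentrated in the middle of the runs. Over the inner CpGs of each run, the middle 50% in order along it, the pooled level was 21.9% in Bull1 and 0.596% in Bull2, and over the outer CpGs it was 12.3% and 0.925%. The difference was larger in size inside than outside in 127 of the 166 runs. Since these runs were chosen for a high level in Bull1 and a level near 0 in Bull2, which leaves out runs with methylated edges in both bulls, their shape is a description of chosen runs and bears on no others. The CpGs of each run were also taken in 10 successive bins of nearly equal CpG number. Bull1 had 7.67% in the first bin, 22.3% in the fifth, 23.1% in the seventh and 8.34% in the last. Bull2 stayed between 0.534% and 1.22% throughout. In the first 200 bp outside, the levels were 7% in Bull1 and 2.68% in Bull2 before the run and 6.76% and 4.21% after it. Over the 2 kb on both sides they were 30.7% and 28.0%. At single CpGs with 5 or more reads, 38.3% stood between 20% and 80% in Bull1 and 0.929% at 80% or above, and 38.7% were at exactly 0, while 94.5% were at 0 in Bull2. In a bulk library, methylation of some CpGs in all cells and of all CpGs in some cells cannot be told apart from such levels, and the part of cells other than sperm was not tested.

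In the 4540 unmethylated runs of ordinary depth the bulls differed by far less. In Bull2 the pooled level was lowest in the middle, with 1.58% in the first bin, 0.824% in the fifth and 1.57% in the last. In Bull1 the first bin had 1.76%, the second 1.52%, the sixth 1.99% and the last 1.78%, so that a small rise in the middle stood between raised ends. The inner CpGs had 1.88% in Bull1 and 0.847% in Bull2, and the outer CpGs had 1.67% and 1.25%. These are levels pooled over runs, and run by run the difference was larger in size inside than outside in 2223 of 4533 (49%). Outside these runs the level climbed steeply in both bulls, from 4.63% in both libraries in the first 200 bp before the run to 69.3% in Bull1 and 65.1% in Bull2 at 2 kb.

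**Figure D4:**
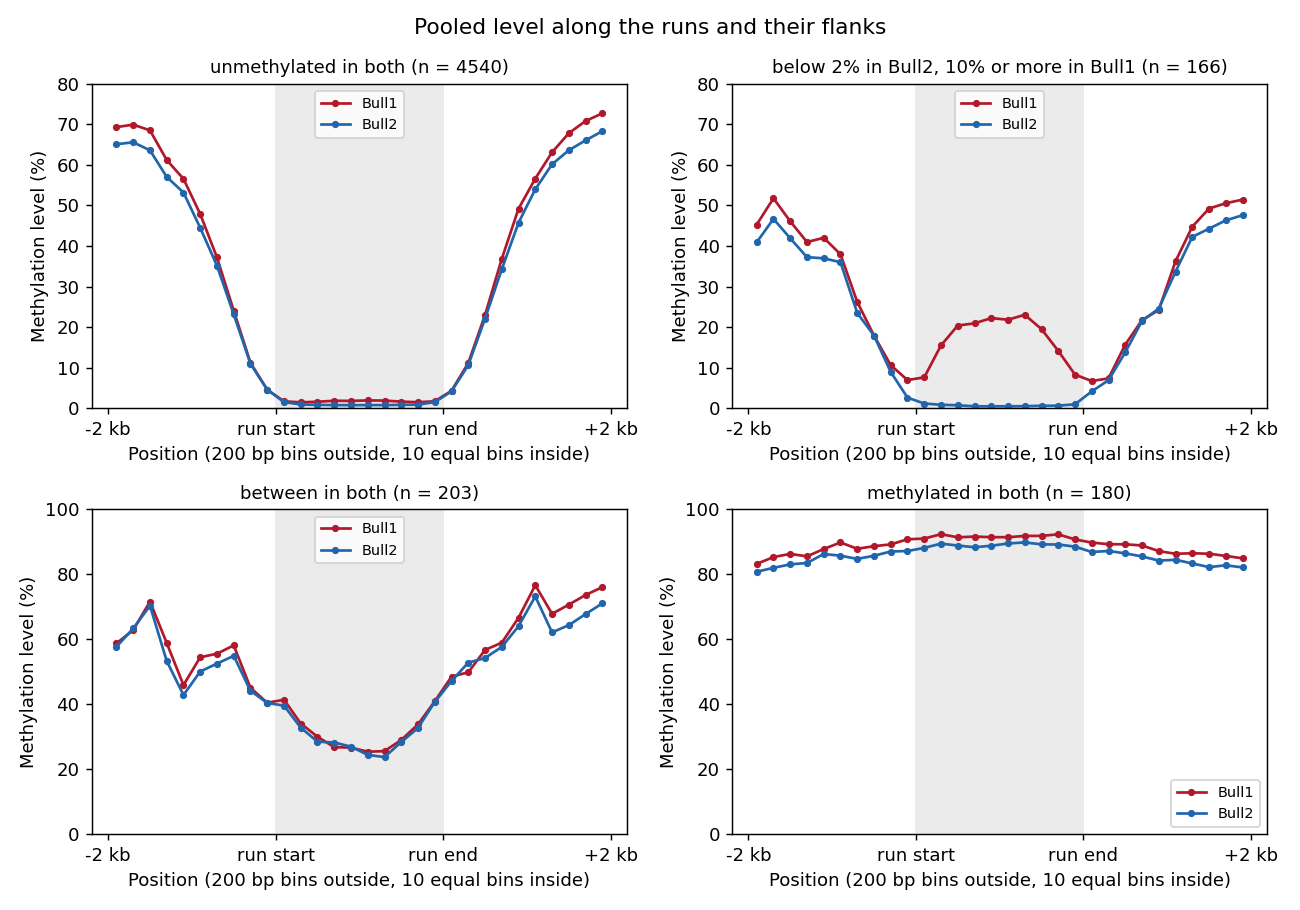
Pooled methylation level in percent (y axis) along the long runs of ordinary depth and their flanks for 4 groups of runs. Bins are 200 bp outside and 10 successive bins of nearly equal CpG number inside (shaded), with Bull1 in red and Bull2 in blue. In the 166 runs chosen for a higher level in Bull1 the red line rises to 23.1% inside the run while the blue line stays at 1.22% or lower; in the other 3 groups the lines run close together, with Bull1 2.42 points higher over the inner CpGs of the methylated runs.

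A test per run was made with Fisher's exact test (two-sided) on reads of CpGs at least 300 bp apart, with Benjamini-Hochberg adjustment over 69963 autosomal runs with 20 or more CpGs. It compares 2 libraries and not the animals. It called 3 of all runs (0.00429%), all higher in Bull1, and 2 of the 5219 long runs tested, both higher in Bull1. At an unadjusted p under 0.05 in this test stood 75 long runs (1.44%), against a background of 1.85%. Higher in Bull1 with such a p were 67 of the 5219 long runs tested. This share is close to the background for that direction, 824 of 69963 (1.18%). The median long run gave the test 25 reads in Bull1 and 26 in Bull2. When instead all reads of a run were divided by the mean number of its CpGs within 300 bp, 0 long runs were called (background 0.00289%, all higher in Bull1) and 37 of 5155 tested (0.718%) had an unadjusted p under 0.05, against a background of 0.0982%. Tested against the odds ratio of all autosomal CpGs in place of equal odds, 29 long runs were called (background 0.237%), of which 27 had an odds ratio below and 2 above the autosomal one of 1.24. These 27 were all runs above 3 times the autosomal mean depth. By the reads of their CpGs at least 300 bp apart, and not by run level, 9 of them were higher and 18 lower in Bull1. At single CpGs with 5 or more reads in both libraries, Fisher's exact test against equal odds called 81 of the autosomal CpGs (0.000351%) and 0 in long runs. That depth was reached by 29.6% of the CpGs in long runs, against 88.7% over the autosomes.

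The called run chr13:40230565-40232184 had 193 CpGs and a level of 38.6% in Bull1 against 0.429% in Bull2, at 3.20 and 4.83 reads per CpG. Of its spaced reads, 13 of 24 were methylated in Bull1 (54.2%, 95% exact Clopper-Pearson interval 32.8% to 74.5%) and 0 of 32 in Bull2 (up to 10.9%), with an adjusted p of 0.0308 in the exact test. Of 75 CpGs with 5 or more reads in both, 72 were higher in Bull1 and 0 lower. In Bull1, 31.1% of its CpGs had no reads, and the first of 4 successive parts of the run had none at all, while the others had 38.2%, 47.4% and 27.6%. The other called run, chr18:58234402-58235853, had 188 CpGs, with 40.8% in Bull1 and 0.624% in Bull2 at 4.75 and 5.12 reads per CpG. Its spaced reads were methylated in 21 of 35 in Bull1 (60%, interval 42.1% to 76.1%) and 0 of 23 in Bull2 (up to 14.8%), and the exact test gave an adjusted p of 0.0266. Its level in Bull1 was carried by the first of 4 successive parts, where 332 of 592 reads were methylated (56.1%), and the others had 0, 16.3% and 15.3%. Of its CpGs, 22 had 5 or more reads in both libraries. This run lay in the locus of 10 runs on chromosome 18 named above, whose median depth was 0.264 reads per CpG in Bull1 and 0.155 in Bull2. Neither call reached 5 reads per CpG in both libraries. In both runs the spaced reads gave a higher level in Bull1 than the whole run, 54.2% against 38.6% and 60% against 40.8%. The intervals are thus those of the spaced CpGs and not of the run level. With all reads divided by CpGs per 300 bp, neither run was called.

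Since no called run had 5 reads per CpG in both libraries, the 5 runs with the largest difference in each direction at that depth are given as a description, chosen after their values were seen. None of them was called by the exact test, with adjusted p of 0.431 or more. Gene names are those the study gave to regions it had picked in these same libraries for differing, so they are names only, and the direction at these genes is no independent evidence.

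The run with the largest excess of Bull1 over Bull2, chr19:45294476-45295904, held 154 CpGs over exon and promoter of C1QL1, which encodes a secreted C1q-like protein. Its level was 52.6% in Bull1 at 9.01 reads per CpG and 0.784% in Bull2 at 5.80. In 4 successive parts of its CpGs, from start to end, Bull1 had 22.9%, 70.5%, 78.1% and 28.8%, and Bull2 had 0.826%, 2.29%, 0.493% and 0. Bull1 was higher at 65 of 84 CpGs with 5 or more reads in both and lower at 1. The levels over the flanking 2 kb were alike, at 17.4% and 16.2%.

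At chr7:50814984-50815996, in an exon of the RNA-binding protein gene HNRNPA0, the 111 CpGs had 39.0% in Bull1 and 0.129% in Bull2, at 9.25 and 7 reads per CpG. Of 95 CpGs with 5 or more reads in both, 93 were higher in Bull1. At chr13:31944809-31945840, over the 5′UTR and an exon of VIM, the gene of the intermediate filament vimentin, the level was 49.8% in Bull1 and 14.8% in Bull2. Its 4 successive parts had 20.9%, 72.5%, 75.4% and 16.4% in Bull1, while in Bull2 they had 0, 1.14%, 32.5% and 14.7%, so both bulls carried methylation inside this island and the methylated stretch was wider in Bull1. At chr8:62600785-62601646, listed at an exon or promoter of ENSBTAG00000014922 and bta-mir-2474, the levels were 30.6% and 0.679%. At chr25:1522195-1523230, with the ribosomal protein gene RPS2 and the small nucleolar RNA SNORA64, they were 29.3% and 0.147%, and the methylation of Bull1 stood at the start of the run. Its 4 successive parts had 68.5%, 29.8%, 0 and 1.36% in Bull1 and 1.25%, 0, 0 and 0 in Bull2. Of 41 CpGs with 5 or more reads in both, 10 were higher in Bull1 and 0 lower. The spaced CpGs missed this stretch, as 0 of 18 and 0 of 29 of their reads were methylated, so the test does not bear on it.

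**Figure D5:**
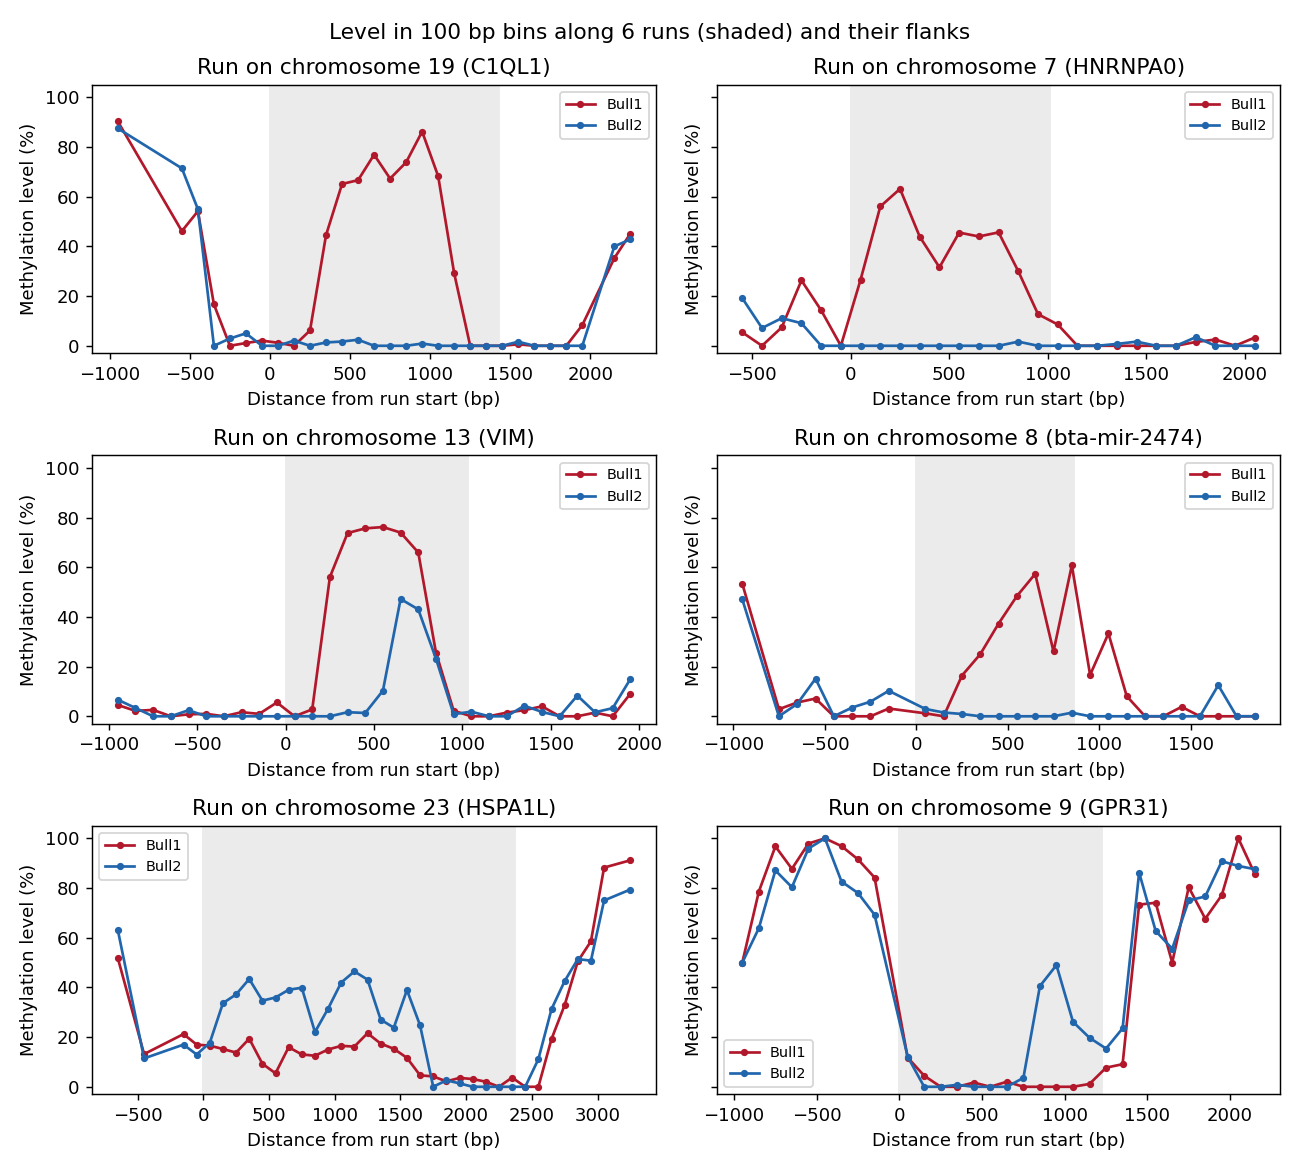
Methylation level in percent (y axis) in 100 bp bins against distance from the run start in bp (x axis) for 4 of the 5 runs with the largest excess in Bull1 and 2 of the 5 with the largest excess in Bull2, with the run shaded, Bull1 in red and Bull2 in blue. In the run of C1QL1 the red line rises inside an island that is near 0 at both edges; in the run of HSPA1L the blue line is above the red over most of the run and both fall to near 0 at its end.

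Runs lower in Bull1 had smaller differences. The largest was at chr23:27332003-27334373, a run of 200 CpGs listed at an exon or promoter of ENSBTAG00000025441 and HSPA1L, the latter a testis-expressed member of the HSP70 chaperone family. The study described its HSPA1L region as lying upstream of HSPA1L and in an exon of HSPA1A, so HSPA1L is used here as a label. The run had 13.6% in Bull1 and 31.7% in Bull2 at 15.8 and 21.8 reads per CpG, a depth close to that of the autosomes. Of 190 CpGs with 5 or more reads in both, 147 were higher in Bull2 and 23 in Bull1. Its spaced reads gave 15.2% in Bull1 (exact interval 9.41% to 22.7%) and 30.9% in Bull2 (24.1% to 38.3%). The exact test gave an unadjusted p of 0.00174 and an adjusted p of 1.

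The study had placed a pyrosequencing assay inside this run, at chr23:27332424-27332494, and its primers are shown because they mark the stretch that was read. They are written 5′ to 3′ against bisulfite-converted DNA.
HSPA1L forward primer: tgttagagtaggtggtgaagatttg
HSPA1L reverse primer: atccccaaaatacaaaaactactac
HSPA1L sequencing primer: gggatggtggagttg
In the WGBS files this window held 6 CpGs, with 9 of 104 reads methylated in Bull1 (8.65%) and 47 of 145 in Bull2 (32.4%), and Bull2 was higher at 6 of 6 CpGs. The window is shorter than a fragment, so a read could be counted at several of these CpGs and they are not independent. A second assay window of the study, for bisulfite sequencing at chr4:69311385-69311729, overlapped the start of the long run chr4:69311553-69312765.
Chromosome 4 forward primer: taagtttgtgggagggggatag
Chromosome 4 reverse primer: accacctcaaaaaaaacaacaaatc
There 11 of 175 reads at 27 CpGs were methylated in Bull1 (6.29%) and 0 of 132 in Bull2, and the whole run had 14.2% and 0.156%.

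The other 4 runs lower in Bull1 differed by less. At chr9:103476707-103477929, in an exon of the G protein-coupled receptor gene GPR31, Bull1 had 1.51% and Bull2 14.8%. The methylation of Bull2 stood toward the end of the run in 100 bp bins. Its spaced reads gave overlapping exact intervals of 0.101% to 20.4% in Bull1 and 7.71% to 38.6% in Bull2. The exact test gave an unadjusted p of 0.112. The run chr19:57721180-57722447 had 14.6% in Bull1 and 25.5% in Bull2 at 59.2 and 73.4 reads per CpG, above the ordinary depth. Bull2 was higher at 130 of its 141 CpGs, and its spaced reads gave exact intervals of 11% to 19.7% in Bull1 and 22.3% to 32% in Bull2, with an unadjusted p of 0.000379 and an adjusted p of 1 in the exact test. The runs chr7:13851439-13853321 and chr21:68901280-68902352 had 14.3% and 14.5% in Bull1, and 24.6% and 23.2% in Bull2, with overlapping intervals.

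Gene names could be given to 78 of the 5309 long runs. These runs stood higher in Bull1 in 73 cases and lower in 5, none was called, and 19 (24.4%) had an unadjusted p under 0.05 in the exact test, where the background over all runs was 1.85%. The names lay on exons in 68 runs. Of the 78, 52 were unmethylated in Bull2 and between the limits in Bull1, 16 were unmethylated in both, 8 were between in both, 1 was methylated in both and 1 was unmethylated in Bull1 and between in Bull2. They include 37 of the 166 runs near 0 in Bull2 and at 10% or more in Bull1, which is 22.3% of those runs and 47.4% of the named ones. As the study listed these regions for differing, these counts describe its list.

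Developmental transcription factors, taken by the first letters of their symbols, with FOXO3 and IRF2BPL so included, made up 12 of the named runs. Most of these families direct the patterning of tissues in the embryo. The symbol list left out EOMES, a T-box factor with 15.6% in Bull1 and 0.863% in Bull2, HMX3, a homeobox factor with 17.0% and 0.231%, and BCL11B, a zinc finger factor with 6.19% and 7.32%, the last of which was lower in Bull1. All 12 stood higher in Bull1, as did 73 of all 78 runs on this list picked for differing, 10 were unmethylated in Bull2 and between the limits in Bull1, and 2 were unmethylated in both. Their median level was 12.9% in Bull1 (7.37% to 46.0%) and 0.811% in Bull2 (0.432% to 4.12%), at a median of 5.57 and 5.07 reads per CpG. At SOX2, a pluripotency and neural factor, the run chr1:85933397-85934533 had 46.0% in Bull1 and 0.837% in Bull2, and it was read at 9.76 reads per CpG in Bull1 and 4.02 in Bull2. At FOXL2, a factor of ovary development, the run chr1:131241197-131244044 of 317 CpGs had 13.4% and 0.611%. At GSX1, a homeobox factor of the forebrain, 17.6% and 0.824% were found. FOXA2, an endoderm factor, had 12.1% and 0.609%, and ZIC1, a zinc finger factor of neural development, had 12.2% and 0.481%. IRX1, an Iroquois homeobox gene, had 14.6% and 0.798%. NR2F1, an orphan nuclear receptor, had 7.37% and 0.432%, below the limit of 10% in both bulls.

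Other named runs held genes of signalling, adhesion and other functions. The Wnt receptor gene FZD5, the only one of the signalling list, had 20.4% in Bull1 and 1.17% in Bull2. PCDH8, the only protocadherin, had 10.4% and 0.667% over 380 CpGs. RHOB, which encodes a small GTPase, had 29.8% and 2.47% at 9.87 and 6.84 reads per CpG. PABPC1, the gene of a poly(A)-binding protein, had 56.0% and 4.46% at 6 and 2.90 reads per CpG, and IGFBP7, which encodes a secreted binding protein of insulin-like growth factors, had 44.2% and 4.84% at 8.85 and 4.72. A run at MAD1L1, a gene of the spindle checkpoint, was methylated in both bulls, with 93.2% and 89.9%. No imprinted gene and no germline gene of the lists used was among the named runs.

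The methylated long runs sat near the ends of the chromosomes. Of the 180 that were methylated in both libraries at ordinary depth, 135 (75%) lay in the last 5 Mb, against 15.4% of the unmethylated runs. Chromosome 17 held 25 of the 181 methylated runs of any depth, chromosome 25 held 24 and chromosome 11 held 17. Their median level was 91.9% in Bull1 and 89.0% in Bull2, and their flanks of 2 kb were methylated as well, at 87.4% and 84.5%, while the flanks of the unmethylated runs had 42.3% and 39.9%. They were less dense, with a median of 7.64 CpGs per 100 bp against 11 in the unmethylated runs, and somewhat deeper, with 6.35 and 7.07 reads per CpG. The inner and outer CpGs differed little, with 91.5% and 91.7% in Bull1.

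The 203 runs of ordinary depth that lay between 10% and 80% in both libraries had medians of 25.7% in Bull1 and 23.6% in Bull2. Of these, 103 (50.7%) lay in the last 5 Mb. In both bulls the outer CpGs were more methylated than the inner ones, at 36.7% against 26.8% in Bull1 and 35.3% against 26.5% in Bull2. Of the runs nearest to a pooled level of 50%, chr12:90731339-90732780 had 49.1% in Bull1 and 45.4% in Bull2 at 8.42 and 7.54 reads per CpG, and chr17:73713439-73714908 had 54.8% and 42.5%. Their exact intervals overlapped between the bulls, and neither was called. The other 3 nearest to 50% had 457.4 or more reads per CpG in Bull1 and belong to the deep runs.

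A small set of long runs was read at great depth. In 77 runs the coverage was above 3 times the autosomal mean in either library, and these runs held 68.9% of all reads in long runs in Bull1 and 71.4% in Bull2. Their median level was 43.9% and 43.5%, and their median depth was 330.2 reads per CpG in Bull1 and 392.2 in Bull2. Of the 77, 16 were unmethylated in both libraries, 60 lay between 10% and 80% in both and 1 was methylated in both. Of the 45 runs above 10 times the mean in both libraries, on 13 chromosomes, 35 had a level between 40% and 50% in both libraries, and Bull1 minus Bull2 ran from -0.83 to 1.16 points. At single CpGs with 5 or more reads, 72.6% in Bull1 and 74.5% in Bull2 stood between 20% and 80%. The deepest, chr21:41335579-41337255, had 3757 reads per CpG in Bull1 and 4490 in Bull2, and levels of 47.1% and 46.3%. Chromosome 24 held 29 of the 77, and 19 of them stood in the locus chr24:56916789-56960876, where every run had between 43.7% and 47.9%.

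Most of the largest runs were of this kind. Among the 10 runs with the most CpGs, 8 were deep, with levels of 40.4% to 46.6% in both libraries. The largest, chr28:11350961-11362416 with 1032 CpGs, had 45.9% in Bull1 and 45.4% in Bull2 at 331.9 and 446.0 reads per CpG. The other two were chr14:2139995-2146882, with 802 CpGs of which 90.5% in Bull1 and 92.1% in Bull2 had no reads, and chr11:106338309-106341490, with 416 CpGs at 3.12% and 2.66%.

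Because of the deep runs, the level pooled over all reads of long runs gave another picture than the runs counted one by one. The pooled level was 30.9% in Bull1 and 31.6% in Bull2, a difference of -0.67 points. Without the 77 deep runs it was 8.30% and 6.92%, a difference of 1.38 points with the higher level in Bull1. The deep runs alone had pooled levels of 41.1% and 41.5%, a difference of -0.33 points, and 48 of the 77 were higher in Bull1. They held 68.9% of the reads of long runs in Bull1 and 71.4% in Bull2. In the same way as the median run, the long runs of ordinary depth therefore stood slightly higher in Bull1, by less than the 4.24 points found over all autosomal CpGs.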

How the data were processed

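Sperm DNA of Bull1 and Bull2 was sequenced as 1 WGBS library each, with lambda DNA added and fragments of 200 to 300 bp. Per the submitters' processing notes and the methods of the study, reads were trimmed with Trim Galore 0.4.0, checked with FastQC 0.11.2, aligned to UMD3.1 with Bismark and Bowtie2 (listed version 0.14.5) and deduplicated. The deposited files give, for each CpG, counts of methylated, unmethylated and all reads, without normalization, and a methylation fraction, which the authors took as methylated over all reads. Only the counts were used, and both files list the same CpGs. The sources used here state neither whether positions start at 0 or 1 nor whether strands were summed. Bisulfite conversion rates were not used here.

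Runs were built and tested with Python 3.11.15, numpy 2.4.6, scipy 1.17.1, pandas 2.3.3 and numba 0.67.0. Members and lists were chosen with earlier results of these data known. No coverage minimum was set for run levels; Fisher's exact tests needed 5 reads of spaced CpGs in each library, with a false discovery rate of 0.05, and were tested on simulated data. Named runs were the 10 with the most CpGs, the 5 deepest, the 5 nearest to 50% at 5 or more reads per CpG and, among called runs of that depth, the 5 with the largest difference in each direction. The last part of the rule gave none, so uncalled runs were named instead. The rule allowed gene names only from a reference annotation; they were taken instead, after the values were seen, from the study's own annotated region list in UMD3.1, from intervals of at most 10 kb, names and positions only. Names in the text beyond the symbol lists were picked from it after their values were seen. Primer sequences came from the study's supplement. Promoter and genome sequence are not shown, as a UMD3.1 genome was not used here. Alternatives changed the coverage limits, the gap, the minimum number of CpGs, the run ends, the depth of Bull1, the site filter and the test.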

Additional observations from a re-analysis of the deposited data

How the results depend on the processing

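No paired analysis was possible because no group holds more than 1 library. The counts of runs near 0 in one library and the test with reads divided by CpGs per 300 bp were added after seeing the data. The median difference kept its sign in the alternatives run: 0.24 points with 5 or more reads per CpG in both, 0.22 with 10 or more, 0.094 with gaps up to 30 bp, 0.52 up to 100 bp, 0.21 with 150 or more CpGs, 0.14 without 10 CpGs at each end, 0.083 with sites of 5 or more reads and 0.078 as their unweighted mean. The pooled difference in these settings was -0.74, -0.34, -0.60, -0.63, -0.19, -0.12 and -1.15 points, and -0.74 with 80 or more CpGs. It turned to 1.38 without the deep runs and to 1.38 as an unweighted mean, since both take weight from the deep runs. Runs unmethylated in both numbered 1170 (5 reads), 36 (10 reads), 1451 (30 bp), 7172 (100 bp), 1219 (150 CpGs) and 7248 (80 CpGs). Runs methylated in both numbered 10 (10 reads), 5 (30 bp), 3151 (100 bp), 17 (150 CpGs) and 469 (80 CpGs). The number of runs kept was 1524 (5 reads), 116 (10 reads), 1616 (30 bp), 13921 (100 bp), 1427 (150 CpGs) and 8644 (80 CpGs), so the shares moved as well as the counts.

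Calls among long runs numbered 0 with 5 or 10 reads per CpG, with gaps up to 30 bp, with CpGs 500 bp apart, at a rate of 0.01 and with reads divided by CpGs per 300 bp. They numbered 1 without run ends, with Bull1 thinned and with adjustment over runs of 10 or more CpGs, and 4 with gaps up to 100 bp. The 2 calls were thus lost or reduced by changes of depth limit, gap, run ends and test. Summing all reads gave 1060, a sum that counts a read at each CpG it spans. Testing against the odds ratio of all autosomal sites gave 29, of which 27 were deep runs with an odds ratio below that of the sites. The cause was not tested for the other changes. The count of 166 became 40, and that of 3 became 1, with 5 reads per CpG in both. Without run ends these counts were 244 and 8, and with sites of 5 or more reads they were 144 and 9.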

Other observations

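Long runs that stand close together did not always share a level. In a locus of 4 runs on chromosome 4 (chr4:114435276-114462302, 27.0 kb) the levels went from 1.43% to 94.4% in Bull1 and from 1.43% to 88.9% in Bull2, and in a locus of 5 runs on chromosome 6 (chr6:109076788-109102129) from 1.14% to 95.6% and from 1.85% to 86.5%. In a locus of 9 runs on chromosome 7 (chr7:53604950-53666243, 61.3 kb) Bull2 had 0.344% to 1%, while Bull1 had 0.478% to 16.2%, at median depths of 6.02 and 4.68 reads per CpG. These loci were picked after their values were seen, and no test was made of them.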
